A study of Mus musculus with 9 samples.

Results

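The genes described here carry fatty acids from the blood into muscle: 10 genes of the 54532 in the deposited table, taken by gene symbol and followed over 9 RNA-seq libraries of injured mouse tibialis anterior, a hind limb muscle. They are Lpl and Gpihbp1, Cd36 and Slc27a1, Fabp3, Fabp4, Fabp5 and Rbp7, and Meox2 and Tcf15. Cd36 and Rbp7 were chosen by their FPKM values in these same 9 libraries, so what they show here is a description and carries no test. The other 8 were chosen for their roles, with earlier results of these data known. The libraries came from old P311-/- mice, old wild-type mice of 24 months and young wild-type mice of 4 to 6 months, 3 libraries each, and all muscles had been injured. P311 is the product of the gene Nrep. The sources used here do not give the age in months of the P311-/- mice, how the allele was made, the sex and strain, or the kind and time of injury. Since the labels leave it unsaid whether replicates are separate animals, a p-value here reflects library-to-library spread, which may be technical.

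Triglyceride in circulating lipoproteins is split at the capillary wall by lipoprotein lipase, which parenchymal cells secrete and the endothelial protein GPIHBP1 carries across and holds in the lumen. The fatty acids released pass through endothelium and sarcolemma with the help of CD36 and the transport protein FATP1, encoded by Slc27a1, and are bound in the cytosol by small fatty acid binding proteins. In mouse heart and skeletal muscle the transcription factors MEOX2 and TCF15 act together in capillary endothelium and promote the expression of fatty acid transport genes there. Several of the genes are not confined to one cell type: Fabp4 is also a gene of adipocytes and macrophages, and Lpl, Cd36 and Fabp5 are active in macrophages too.

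Levels are given in FPKM, reads divided by gene length and by a library size that the authors had scaled. Reads recovered from these values ranged from 14222204 to 31910890 per library. Nrep stood at 6.37 to 14.8 FPKM in old P311-/-, 71.4 to 83.1 FPKM in old wild-type and 63.9 to 86.3 FPKM in young wild-type libraries, lower in every P311-/- library than in any other. Replicate 1 of old P311-/- stood apart from replicates 2 and 3 over all genes, and calls involving that group are given with and without it. That replicate was singled out on the values of these same libraries, so calls without it add no separate support. The differences between groups were tested with limma on log2 of FPKM plus 0.1 over all 14233 genes with sufficient signal. An adjusted p (Benjamini-Hochberg) under 0.05 counted as passing, and all 10 genes met the filter.

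In these libraries Cd36 was about as high in old P311-/- as in old wild-type muscle and higher in both than in young muscle. Rbp7 was lower in P311-/- muscle than in both wild-type groups. None of the other 8 genes passed in any comparison of the 9 libraries, where 0.0703% of all tested genes passed between old P311-/- and old wild type, 5.4% between old and young wild type and 0.4% between old P311-/- and young wild type. Lpl came nearest with age, and Slc27a1, Fabp4 and Fabp5 split the P311-/- group, with replicates 2 and 3 on one side and replicate 1 within or just above the wild-type range. The plot of FPKM by library shows these patterns for all 10 genes.

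**Figure D1:**
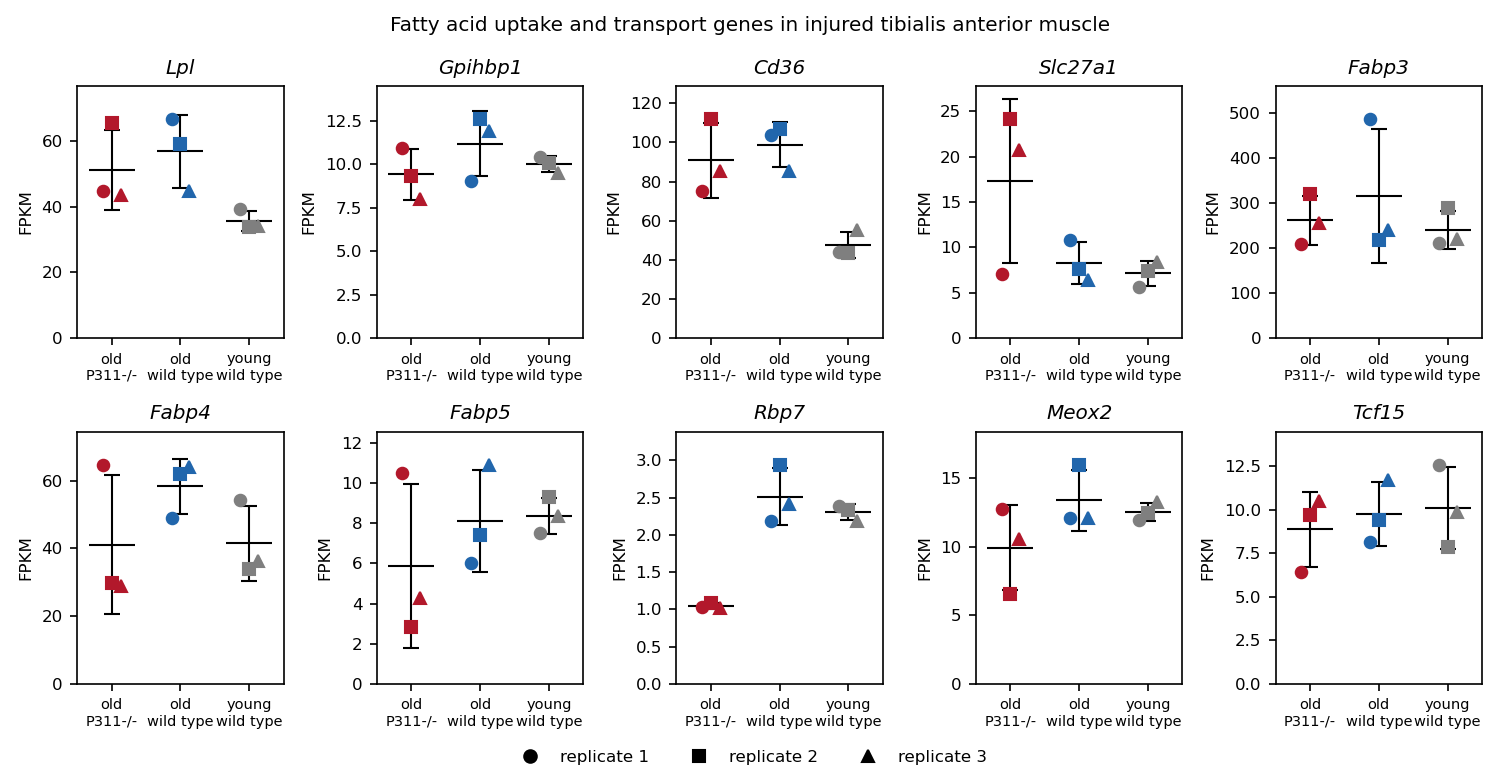
FPKM (linear axes from 0) of the 10 genes in each library of old P311-/-, old wild-type and young wild-type injured muscle; marker shapes give the replicate number, and bars give the mean and SD of 3 libraries. Cd36 in the 6 old libraries lies at 75.1 to 112 FPKM and in the 3 young ones at 43.4 to 55.2 FPKM, and Rbp7 lies at 1.01 to 1.09 FPKM in P311-/- and at 2.18 to 2.94 FPKM in the 6 wild-type libraries.

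Cd36 (ENSMUSG00000002944, chromosome 5, 17781690 to 17888801, minus strand, GRCm38) encodes the membrane protein that binds long-chain fatty acids. It stood at 75.1, 112 and 85.4 FPKM in old P311-/- replicates 1 to 3. It stood at 104, 107 and 85.6 FPKM in old wild-type replicates 1 to 3 and at 44.2, 43.4 and 55.2 FPKM in young wild-type replicates 1 to 3. Each of the 6 old libraries lay above each of the 3 young libraries, and the old genotypes overlapped. The mean was 90.8 ± 19.1 FPKM in old P311-/-, 98.9 ± 11.6 FPKM in old wild-type and 47.6 ± 6.56 FPKM in young wild-type muscle (SD, n = 3 each). On the log2 scale old wild type exceeded young wild type by 1.05, a fold of 2.08, and old P311-/- exceeded young wild type by 0.92. Old P311-/- and old wild type differed by -0.14. Without P311-/- replicate 1, the lowest of the old libraries for this gene, that difference was -0.01. The values rest on 2403 to 9259 reads per library.

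A promoter of Cd36 is shown because the gene sets the age groups apart in these libraries. It runs from 250 bases before to 50 after the RefSeq start (chr5:17835847-17836146, minus strand, GRCm38.p6), 5′ to 3′, with capitals for the E box CANNTG and the nuclear receptor hexamer AGGTCA, matched on both strands.
Cd36: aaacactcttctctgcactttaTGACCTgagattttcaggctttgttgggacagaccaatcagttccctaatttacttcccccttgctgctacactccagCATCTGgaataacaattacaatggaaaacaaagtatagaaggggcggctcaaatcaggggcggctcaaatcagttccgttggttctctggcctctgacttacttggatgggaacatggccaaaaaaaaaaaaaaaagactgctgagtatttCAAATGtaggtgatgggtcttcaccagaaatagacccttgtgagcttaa
It held 2 E boxes and 1 hexamer on the reverse strand and neither TAATTA, a homeodomain core, nor the TATA box TATAAA. An E box was present in 72.3%, the hexamer in 16.3%, TAATTA in 5.29% and TATAAA in 13.6% of the 32851 RefSeq promoters of the same length. These matches are a description of the letters and not of binding. The start used lies inside the Cd36 span and not at its minus-strand 5' end (17888801). Which start the reads came from was not tested.

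The summed FPKM of markers of endothelium and fibres, cells that express Cd36, was also higher in the old libraries. For both lists, however, the mean log2 level of each old group overlapped that of young wild type. For fibre markers that level was higher in every old P311-/- library than in every old wild-type library. The 22 endothelial markers summed to 242 to 272 FPKM in old P311-/-, 255 to 266 FPKM in old wild-type and 225 to 236 FPKM in young wild-type libraries, and none was at 0. Their mean log2 level was 2.61 to 2.73, 2.57 to 2.81 and 2.58 to 2.62 in the same groups. The 15 fibre markers summed to 48900 to 65200 FPKM, 49900 to 61500 FPKM and 45300 to 47900 FPKM in old P311-/-, old wild-type and young wild-type libraries. Their mean log2 level was 8.41 to 8.99 in old P311-/-, 8.09 to 8.34 in old wild-type libraries and 8.0 to 8.47 in young ones, so young replicate 1 lay above every old wild-type library. Relative to the mean log2 level of the endothelial markers in its own library, Cd36 stood at 3.52 to 4.2 in old P311-/-, 3.61 to 4.13 in old wild-type libraries and 2.85 to 3.20 in young ones. On that relative log2 scale the old libraries lay above all young ones. The endothelial level varied little, so this scale largely repeats the values for which Cd36 was picked and adds no separate support. In bulk RNA, more cells of a type and more RNA per cell cannot be told apart, and the part of cell composition in these differences was not tested.

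Rbp7 (ENSMUSG00000028996, chromosome 4, 149449687 to 149454978, minus strand) encodes a retinol binding protein of the same family of small intracellular lipid binding proteins as the FABPs, found in adipose tissue and capillary endothelium of mice. It stood at 1.03, 1.09 and 1.01 FPKM in old P311-/- replicates 1 to 3. It stood at 2.18, 2.94 and 2.42 FPKM in old wild-type replicates 1 to 3 and at 2.39, 2.33 and 2.18 FPKM in young wild-type replicates 1 to 3. All 3 P311-/- libraries lay below all 6 wild-type libraries, and replicate 1, which stood apart for many other genes, lay with replicates 2 and 3 here. The mean was 1.04 ± 0.0413 FPKM in old P311-/-, 2.52 ± 0.388 FPKM in old wild-type and 2.30 ± 0.106 FPKM in young wild-type muscle (SD, n = 3 each). The log2 difference was -1.18 for old P311-/- against old wild type and 0.11 for old against young wild type.

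These Rbp7 values rest on few reads: 21, 14 and 22 in the P311-/- libraries, 34, 35 and 42 in old wild type and 26, 28 and 31 in young wild type. The coefficient of variation between the P311-/- replicates was 3.96%, below the 21.3% to 26.7% that counting alone gives for single libraries of that depth. In young wild type it was 4.62%, where counting alone gives 18% to 19.6%. The counting error of this gene is thus larger than its replicate SD in both groups. Summed over libraries, 57 reads in old P311-/- against 111 in old wild type gave a ratio of 0.418, with an exact 95% counting interval of 0.299 to 0.581 that covers counting error only. Against the 85 reads in young wild type the ratio was 0.452 (0.317 to 0.639). Since Rbp7 was picked for these same values, neither interval is a test of a difference between groups.

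Relative to endothelial markers, Rbp7 stood at -2.57 to -2.36 on the relative log2 scale in old P311-/- libraries. Old wild-type libraries stood at -1.47 to -1.16 and young ones at -1.40 to -1.30. The mean log2 level of the 22 endothelial markers itself was 2.61 to 2.73 in old P311-/- and 2.57 to 2.81 in old wild-type libraries, so these ranges overlapped. That level varied little, so the relative scale largely repeats the values for which Rbp7 was picked and adds no separate support. Within 500 kb of Rbp7, 18 other genes were tested. None passed between old P311-/- and old wild type, although 7 had an unadjusted p under 0.05, where 16.1% of all genes did. The log2 fold changes of the 18 ran from -0.3 to 0.99 with a median of 0.35, against a median of 0 for all genes. The nearest tested genes on either side, Ube4b, a ubiquitin ligase gene, and the pseudogene Trmt112-ps2, had 0.5 and -0.03. Of the 18, 15 lay above 0, where Rbp7 lay below, and what sets these directions was not tested.

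The promoter of Rbp7 (chr4:149454919-149455218, minus strand, GRCm38.p6) is shown because this gene alone of the 10 kept the P311-/- libraries apart from all others. It held none of the 4 motifs searched, so no letters are in capitals.
Rbp7: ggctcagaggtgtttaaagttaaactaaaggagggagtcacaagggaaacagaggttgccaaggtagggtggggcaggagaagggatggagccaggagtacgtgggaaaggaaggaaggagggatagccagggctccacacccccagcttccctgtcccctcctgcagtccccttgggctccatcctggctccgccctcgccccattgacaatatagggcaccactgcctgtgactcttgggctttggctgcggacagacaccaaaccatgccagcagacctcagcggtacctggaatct
Its GC content was 58.3% and that of the Cd36 promoter shown 43%, where the median over all 32851 promoters was 52.7%. Of the 10 genes, 5 matched the promoter table, and Lpl, Gpihbp1, Fabp4, Fabp5 and Tcf15 are named only.

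Among tested genes with an established name, those whose centred log2 profile over the 9 libraries lay nearest to Cd36 were Pxmp2, a peroxisomal membrane protein gene, BB218582 and Cradd, a death domain adaptor. Their root mean square differences from Cd36 were 0.159, 0.16 and 0.162 on the log2 scale, where the median over all genes was 0.57. Nearest to Rbp7 lay Btaf1, a regulator of the TATA-binding protein, Ide, the insulin degrading enzyme, and Exoc3l2, at 0.183, 0.193 and 0.202, against a median of 0.61. Btaf1 (36926079 to 37012752) and Ide (37268743 to 37337852) lie near each other on chromosome 19. The genes nearest to Gpihbp1 were Cpd, Nck2 and Atrx (0.074 to 0.08), those nearest to Meox2 were Dsel, Zfp608 and Ap3s1 (0.119 to 0.14), and those nearest to Tcf15 were Six4, Ndufa4l2 and Rsl1 (0.148 to 0.163).

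Lpl (ENSMUSG00000015568, chromosome 8, 68880491 to 68907448, plus strand) encodes the lipase itself. It stood at 44.9, 65.3 and 43.4 FPKM in old P311-/- replicates 1 to 3. It stood at 66.7, 59.1 and 44.8 FPKM in old wild-type replicates 1 to 3 and at 39.3, 33.7 and 34.1 FPKM in young wild-type replicates 1 to 3. Every old library lay above every young one, as for Cd36, while the 2 old genotypes overlapped. The log2 fold change of old against young wild type was 0.65 (SE 0.2, 95% interval 0.22 to 1.09), and the limma adjusted p of 0.0768 did not pass. It passed in a fit of these 6 libraries alone (adjusted p = 0.0389) and without P311-/- replicate 2 (0.0472), and over all fits that left out 1 library it ran from 0.0472 to 0.211. Old P311-/- against young wild type gave 0.5 (SE 0.2, adjusted p = 0.192), and old P311-/- against old wild type -0.16 (SE 0.2, adjusted p = 0.709).

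Gpihbp1 (ENSMUSG00000022579, chromosome 15, 75596628 to 75599481, plus strand), the endothelial anchor of the lipase, varied little. It stood at 10.9, 9.33 and 8.02 FPKM in old P311-/- replicates 1 to 3. It stood at 9.06, 12.6 and 11.9 FPKM in old wild-type replicates 1 to 3 and at 10.4, 10.1 and 9.49 FPKM in young wild-type replicates 1 to 3. The 3 groups overlapped. Its log2 fold change was -0.24 (95% interval -0.6 to 0.11) for old P311-/- against old wild type and 0.15 (-0.2 to 0.5) for old against young wild type, with limma adjusted p of 0.453 and 0.583. Differences of 2-fold lie outside both intervals.

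Slc27a1 (ENSMUSG00000031808, chromosome 8, 71568882 to 71587302, plus strand) encodes FATP1, a transport protein with acyl-CoA synthetase activity that is abundant in muscle and fat. It stood at 7.10, 24.2 and 20.8 FPKM in old P311-/- replicates 1 to 3. It stood at 10.8, 7.57 and 6.40 FPKM in old wild-type replicates 1 to 3 and at 5.66, 7.42 and 8.38 FPKM in young wild-type replicates 1 to 3. Replicates 2 and 3 of P311-/- lay above every wild-type library, and replicate 1 lay within the wild-type range. The log2 fold change of old P311-/- against old wild type was 0.91 (SE 0.41, 95% interval 0 to 1.83, limma adjusted p = 0.311). Without P311-/- replicate 1 it was 1.46 (SE 0.23, adjusted p = 0.00914). Without replicate 2 or replicate 3 instead it was 0.59 and 0.7, with limma adjusted p of 0.56 and 0.75. With young wild type as the comparison the log2 fold change was 1.1 (SE 0.41, adjusted p = 0.174), and 1.65 without replicate 1 (adjusted p = 0.00382).

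The promoter at the first of 3 RefSeq starts of Slc27a1 (chr8:71568621-71568920, plus strand, GRCm38.p6) is shown because its reads split the P311-/- group. Capitals again mark E boxes.
Slc27a1: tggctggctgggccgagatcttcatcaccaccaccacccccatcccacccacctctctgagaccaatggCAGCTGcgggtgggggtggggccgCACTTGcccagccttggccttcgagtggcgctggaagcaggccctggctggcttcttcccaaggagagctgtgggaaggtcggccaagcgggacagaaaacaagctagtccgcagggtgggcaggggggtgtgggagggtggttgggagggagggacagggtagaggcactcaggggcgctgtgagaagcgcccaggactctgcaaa
This promoter held 2 E boxes, and those at the other 2 starts held 1 each, and none of the 3 held any of the other motifs searched.

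Fabp3 (ENSMUSG00000028773, chromosome 4, 130308595 to 130315463, plus strand) encodes the binding protein of heart and skeletal muscle fibres. It stood at 210, 319 and 255 FPKM in old P311-/- replicates 1 to 3. It stood at 487, 219 and 239 FPKM in old wild-type replicates 1 to 3 and at 210, 288 and 221 FPKM in young wild-type replicates 1 to 3. Old wild-type replicate 1 was the highest, and the groups otherwise covered the same range. Old P311-/- against old wild type gave a log2 fold change of -0.19 (SE 0.3, limma adjusted p = 0.768), and old against young wild type gave 0.31 (SE 0.3, adjusted p = 0.536). Without old wild-type replicate 1 they were 0.17 and -0.05, so both signs rest on that library. Zcchc17 overlaps Fabp3 on the opposite strand, at 8.53 to 13.2 FPKM, and whether the counts used strand is unknown here.

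Fabp4 (ENSMUSG00000062515, chromosome 3, 10204088 to 10208576, minus strand) encodes the binding protein of adipocytes, capillary endothelium and macrophages. It stood at 64.7, 29.8 and 28.9 FPKM in old P311-/- replicates 1 to 3. It stood at 49.1, 62.2 and 64.0 FPKM in old wild-type replicates 1 to 3 and at 54.3, 34.1 and 36.4 FPKM in young wild-type replicates 1 to 3. Replicates 2 and 3 of P311-/- were the lowest of the 9 libraries and replicate 1 the highest. The log2 fold change of old P311-/- against old wild type was -0.6 (SE 0.31, limma adjusted p = 0.356), and without P311-/- replicate 1 it was -0.98 (SE 0.2, adjusted p = 0.0191). Over all fits that left out 1 library the limma adjusted p ran from 0.0191 to 0.781. Old against young wild type gave 0.51 (SE 0.31, adjusted p = 0.316).

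Fabp5 (ENSMUSG00000027533, chromosome 3, 10012548 to 10016607, plus strand), known from skin, endothelium and macrophages, lies in the same cluster of Fabp genes. It stood at 10.5, 2.82 and 4.27 FPKM in old P311-/- replicates 1 to 3. It stood at 6.02, 7.39 and 10.9 FPKM in old wild-type replicates 1 to 3 and at 7.5, 9.29 and 8.37 FPKM in young wild-type replicates 1 to 3. The order within P311-/- was that of Fabp4 in that replicate 1 was high and replicates 2 and 3 lay below every wild-type library. The log2 fold change of old P311-/- against old wild type was -0.63 (SE 0.4, limma adjusted p = 0.446), and -1.16 (SE 0.26, adjusted p = 0.024) without replicate 1. Over all fits that left out 1 library the limma adjusted p ran from 0.024 to 0.815. With young wild type as the comparison the log2 fold change was -0.72 (SE 0.4, adjusted p = 0.325), and -1.24 (adjusted p = 0.0131) without replicate 1.

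Meox2 (ENSMUSG00000036144, chromosome 12, 37108540 to 37179534, plus strand) encodes the homeodomain partner of the pair. It stood at 12.7, 6.54 and 10.6 FPKM in old P311-/- replicates 1 to 3. It stood at 12.1, 16.0 and 12.1 FPKM in old wild-type replicates 1 to 3 and at 11.9, 12.4 and 13.3 FPKM in young wild-type replicates 1 to 3. Only P311-/- replicates 2 and 3 lay below all wild-type libraries. Its log2 fold change between old P311-/- and old wild type was -0.47 (SE 0.22, limma adjusted p = 0.335). It did not pass without replicate 1 either (-0.67, adjusted p = 0.0617).

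Tcf15 (ENSMUSG00000068079, chromosome 2, 152143561 to 152149097, plus strand) encodes the basic helix-loop-helix partner. It stood at 6.44, 9.70 and 10.5 FPKM in old P311-/- replicates 1 to 3. It stood at 8.14, 9.42 and 11.7 FPKM in old wild-type replicates 1 to 3 and at 12.6, 7.88 and 9.86 FPKM in young wild-type replicates 1 to 3. The groups overlapped throughout. Its log2 fold change was -0.15 (95% interval -0.67 to 0.37) for old P311-/- against old wild type and -0.04 (-0.56 to 0.48) for old against young wild type, with limma adjusted p of 0.769 and 0.931. Changes of 2-fold lie outside both intervals.

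**Figure D2:**
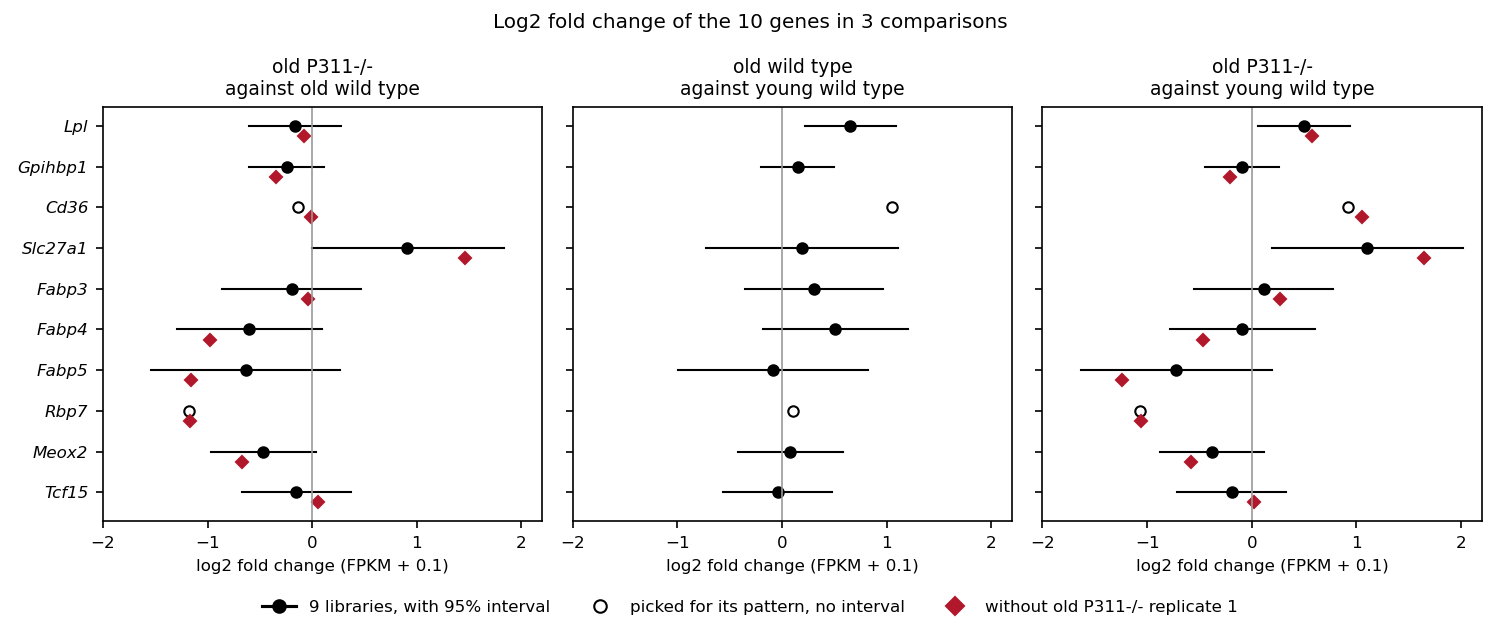
Log2 fold change on the scale of FPKM + 0.1 (x axis) of the 10 genes (y axis) in 3 comparisons; filled points with lines give the estimate and its 95% interval over 9 libraries, open points the 2 genes picked for their pattern, and red diamonds the estimate without old P311-/- replicate 1. Leaving out that replicate moves Slc27a1 to 1.46, Fabp4 to -0.98 and Fabp5 to -1.16 against old wild type, while Rbp7 stays at -1.17.

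Between old P311-/- and old wild type limma thus passed 0 of the 8 tested genes, with 0 at an unadjusted p under 0.05 and 0 by voom on recovered reads. Over all genes 0.0703% passed and 16.1% had an unadjusted p under 0.05. The median log2 fold change of the 8 was -0.22, with 7 below 0, where the median of all genes was 0. None of the 8 had groups that did not overlap, against 18% of all genes. Without P311-/- replicate 1, 3 of the 8 passed (Slc27a1 higher, Fabp4 and Fabp5 lower), where 13.2% of all genes passed. With library quality weights, which gave P311-/- replicates 1 to 3 weights of 0.27, 0.687 and 2.54, 3 also passed. Replicate 1 had the lowest weight of all libraries, so this result is not separate from leaving it out.

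Between old and young wild type 0 of the 8 passed with limma, 1 (Lpl) had an unadjusted p under 0.05 and 0 passed by voom, where 5.4% of all genes passed and 26.3% had an unadjusted p under 0.05. Their median log2 fold change was 0.17, against 0 for all genes. Only Lpl had groups that did not overlap, against 37.1% of all genes, or 19% in the upward direction alone. Between old P311-/- and young wild type 0 of the 8 passed with limma and 0 by voom, and 2 (Lpl and Slc27a1) had an unadjusted p under 0.05, where 0.4% and 21.4% of all genes did so. Lpl alone did not overlap there, against 23.5% of all genes and 11.6% upward. Without P311-/- replicate 1, 2 of the 8 (Slc27a1 higher, Fabp5 lower) passed, where 19.6% of all genes passed. The comparisons share libraries and are not independent of each other.

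Markers of other cell types moved with the split within P311-/-. The 14 macrophage markers summed to 730 to 1690 FPKM in old P311-/- libraries, 1260 to 1860 FPKM in old wild-type libraries and 1560 to 2400 FPKM in young libraries, with none at 0. Their mean log2 level was 4.60, 3.61 and 3.96 in P311-/- replicates 1 to 3, against 4.18 to 4.80 in old wild type, so replicates 2 and 3 lay below all old wild-type libraries, as for Fabp4 and Fabp5. Among wild-type libraries the order differed. Old replicate 1 had the highest macrophage level of its group (4.80) and the lowest Fabp4 (49.1 FPKM) and Fabp5 (6.02 FPKM). Young replicate 1 had the lowest macrophage level of its group (4.60), the highest Fabp4 (54.3 FPKM) and the lowest Fabp5 (7.5 FPKM). The macrophage gene Adgre1 stood at 20.8, 9.59 and 11.5 FPKM in P311-/- replicates 1 to 3 and at 24.4, 19.5 and 22.9 FPKM in old wild-type replicates 1 to 3. The 14 adipocyte markers summed to 150 to 298 FPKM in old P311-/- libraries, 147 to 187 FPKM in old wild-type libraries and 136 to 213 FPKM in young libraries. Adipoq, which defines adipocytes, stood at 23.2, 6.44 and 8.63 FPKM in P311-/- replicates 1 to 3 and at 11.3, 5.72 and 10.2 FPKM in old wild-type replicates 1 to 3. Within P311-/- it was highest where Fabp4 was highest, and within old wild type where Fabp4 was lowest. The mean log2 level of the 12 tested adipocyte markers was 3.23, 2.16 and 2.46 in P311-/- replicates 1 to 3. Leaving out replicate 1 moved their median log2 fold change against old wild type from 0.47 to 0.09, and that of Adipoq from 0.32 to -0.22. Of the 12, only Plin4 (1.11 to 1.64) and Lep (0.62 to 0.72) moved up. Lep had as few as 4 reads in a library. The mean log2 level of the 15 fibre markers was 8.41, 8.76 and 8.99 in P311-/- replicates 1 to 3, against 8.09 to 8.34 in old wild type, and within P311-/- it was higher in the 2 replicates in which Slc27a1 was high. The markers did not move alike. Without replicate 1 their median log2 fold change against old wild type was 0.37. Myh7 (4.02) and Myh2 (2.45) had far larger values, and Tnnc2 (-1.01), Myl1 (-0.69) and Pvalb (-0.53) lay below 0. Tnnc2 (limma adjusted p = 0.0752) and Pvalb (0.105) did not pass. Myh7, at 0.275 FPKM in old wild type, and Tnnc2 were near the floor, with as few as 15 and 4 reads in a library. The part of these cell types in the values of Slc27a1, Fabp4 and Fabp5 was not tested.

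**Figure D3:**
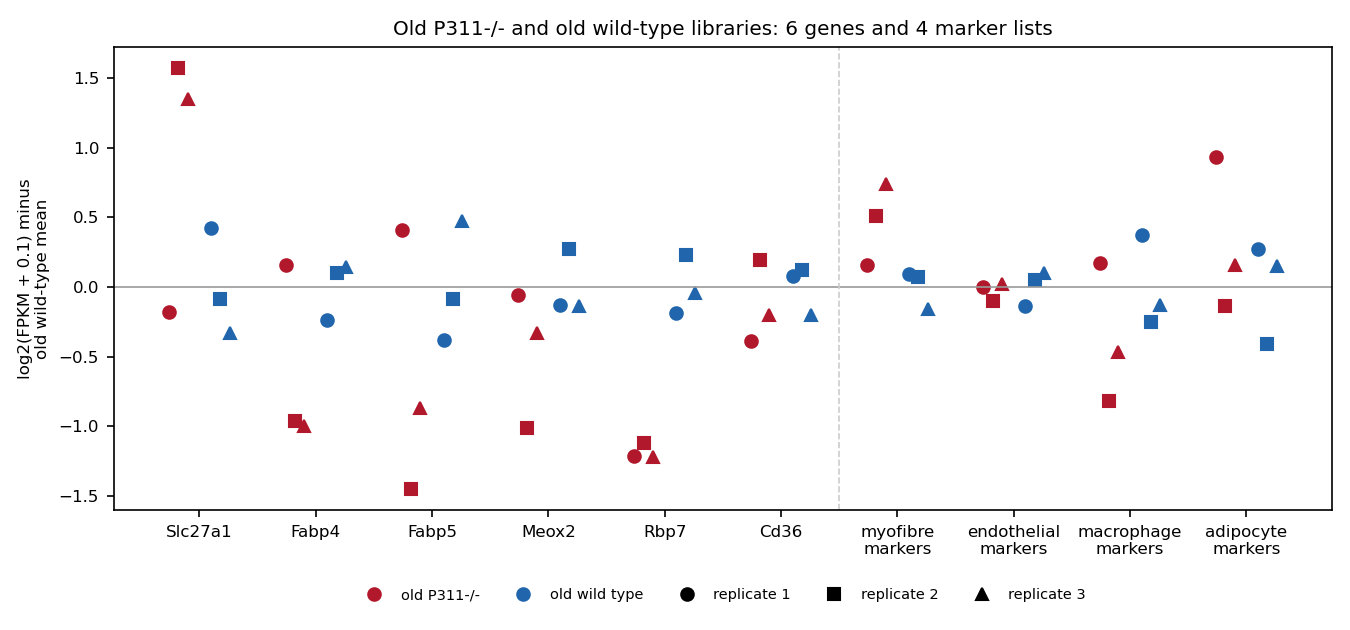
Log2(FPKM + 0.1) of 6 genes, and the mean over each of 4 marker lists, minus the mean of old wild type (y axis), in each old P311-/- (red, left) and old wild-type library (blue, right); shapes give the replicate number. Slc27a1 lies at 1.57 and 1.35 in P311-/- replicates 2 and 3 and at -0.18 in replicate 1, Fabp5 at -1.45, -0.87 and 0.41, and Rbp7 between -1.22 and -1.12 in all 3.

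Levels between genes depend on the gene length used, which was the summed exon length of all annotated transcripts. For Fabp4 the deposited 4489 bases equal 100% of the gene span, introns included, and are 5.01 times the 896 bases of the principal GENCODE M21 transcript. The ratio was 3.61 for Fabp5, 3.1 for Gpihbp1, 2.55 for Lpl and 2.09 for Slc27a1, and 1 to 1.16 for Fabp3, Cd36, Rbp7, Meox2 and Tcf15. In old wild type the order by deposited FPKM was Fabp3 (315 ± 150), Cd36 (98.9 ± 11.6), Fabp4 (58.4 ± 8.14) and Lpl (56.9 ± 11.1), then Meox2 (13.4 ± 2.24), Gpihbp1 (11.2 ± 1.88), Tcf15 (9.77 ± 1.83), Slc27a1 (8.26 ± 2.29), Fabp5 (8.11 ± 2.53) and Rbp7 (2.52 ± 0.388) (FPKM, SD, n = 3). The neighbours Fabp4 and Lpl, and those from Meox2 to Fabp5, differed by less than their spread. Per principal transcript length Fabp4 stood at 293 ± 40.8 FPKM, beside 315 ± 150 FPKM for Fabp3, and Lpl at 145 ± 28.3 FPKM above Cd36 at 104 ± 12.3 FPKM. Fold changes between groups are the same under both lengths, apart from the pseudocount.

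**Figure D4:**
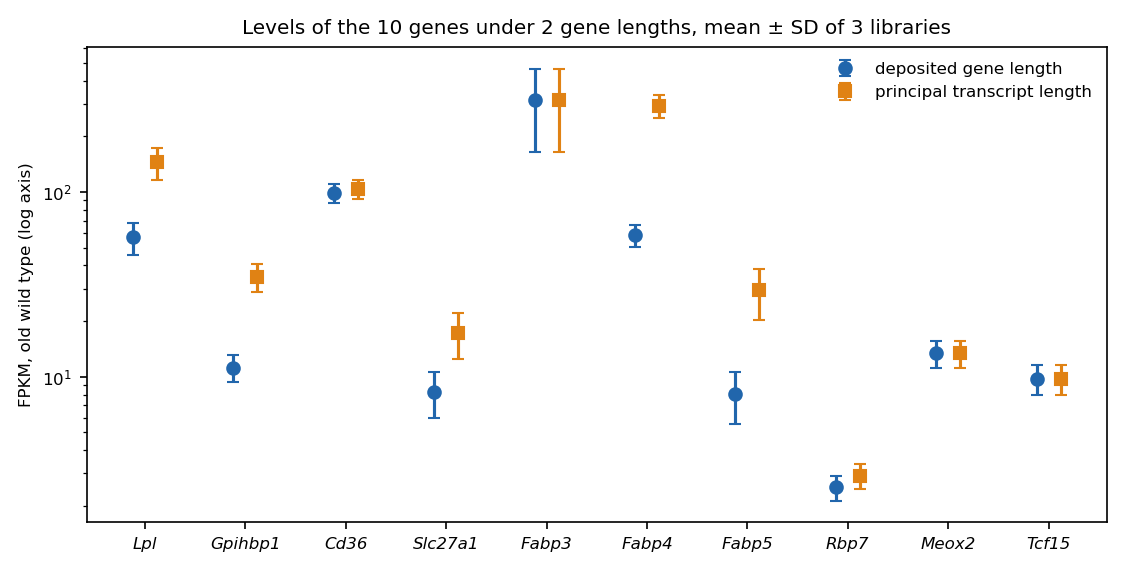
Mean and SD of FPKM over 3 old wild-type libraries (y axis, logarithmic) of the 10 genes (x axis), with the deposited gene length (circles) and the principal transcript length (squares). Fabp4 moves to 293 FPKM, level with Fabp3, and Lpl moves to 145 FPKM, above Cd36.

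The share of the 3 binding proteins showed the same dependence. By deposited length Fabp3 made up 84.3% ± 9.3 of the summed Fabp3, Fabp4 and Fabp5 FPKM in old P311-/-, 80.6% ± 7.97 in old wild type and 82.5% ± 4.84 in young wild type (SD, n = 3 each). Per principal transcript length the Fabp3 share was 54.9% ± 16, 47.9% ± 14.4 and 50.3% ± 8.62 in the same groups. Within P311-/- it was 36.7%, 66.7% and 61.4% in replicates 1 to 3, so Fabp4 led in replicate 1 and Fabp3 in the other 2. The Fabp3 share did not separate the groups under either length.

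Other genes of fatty acid and lipoprotein uptake, 24 of 34 listed with sufficient signal, gave no call between old P311-/- and old wild type, with 5 at an unadjusted p under 0.05 where 16.1% of all genes were, and 2 calls between old and young wild type, where 5.4% of all genes passed. Acsl6, which activates long-chain fatty acids, was higher at 6.42 ± 1.42 FPKM in old and 3.24 ± 0.204 FPKM in young wild type (SD, n = 3 each, log2 fold change 0.94, limma adjusted p = 0.034). Lrp1, an endocytic receptor of lipoprotein remnants, was lower at 10.5 ± 1.51 FPKM in old and 21.4 ± 2.93 FPKM in young wild type (log2 fold change -1.02, adjusted p = 0.0307). Acsl1, the main acyl-CoA synthetase of muscle, and Vldlr, an endothelial receptor of triglyceride-rich lipoproteins, had log2 fold changes of 0.14 and 0.15 with age and did not pass. Without P311-/- replicate 1, 7 of the 24 passed against old wild type, where 13.2% of all genes passed. That share of all genes applies to each count without that replicate against old wild type. These, and the genes given in later paragraphs for a call without that replicate, were named after their values were seen. Higher were Vegfb, a growth factor of endothelial lipid uptake in mice, and its receptor Flt1 (log2 fold change 0.74 and 0.83). Lower were the apelin receptor gene Aplnr (-2.26), Cav2 (-0.99), Cav1, a coat protein of caveolae (-0.74), the acyl-CoA binding protein gene Dbi (-0.5) and Acsl5 (-0.48).

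Downstream of uptake, all 18 listed genes of mitochondrial fatty acid oxidation were tested. Old against young wild type gave a median log2 fold change of 0.37, with 16 of 18 above 0, against a median of 0 for all genes. At an unadjusted p under 0.05 were 7 of the 18, where 26.3% of all genes were. Only Etfa, an electron carrier of the pathway, passed, at 107 ± 3.08 FPKM in old and 71.0 ± 10.2 FPKM in young wild type (SD, n = 3 each, limma adjusted p = 0.0497). Old P311-/- against old wild type gave a median of 0.06 with 0 passing and 0 at an unadjusted p under 0.05, where 16.1% of all genes were. The very long chain dehydrogenase gene Acadvl (0.51) was the 1 that passed without P311-/- replicate 1.

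Of 15 lipid droplet and triglyceride genes none passed in any comparison of the 9 libraries. At an unadjusted p under 0.05 were 6 between old P311-/- and old wild type, where 16.1% of all genes were. Between old and young wild type there was 1, where 26.3% of all genes were. Pnpla2, which encodes the triglyceride lipase ATGL, was the 1 that passed without P311-/- replicate 1 (log2 fold change 1.05, adjusted p = 0.00335). Of 15 tested genes of the PPAR receptors, their partners and targets, 1 passed between old and young wild type: Ppargc1b, a coactivator of mitochondrial and lipid genes, stood at 2.28 ± 0.265 FPKM in old and 5.69 ± 0.585 FPKM in young wild type (SD, n = 3 each, adjusted p = 0.0246). None passed between old P311-/- and old wild type, with 4 of the 15 at an unadjusted p under 0.05, where 16.1% of all genes were. Without replicate 1 those passing were Rxra (0.92), Ppara (0.9), Rxrb (0.65) and Ppard (0.64), nuclear receptor genes of fatty acid control, all higher. Pparg, the receptor of adipocytes, stood at 1.94 ± 0.825 FPKM in old P311-/- and 2.14 ± 0.342 FPKM in old wild type (SD, n = 3 each).

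Among 11 tested retinoid genes, listed for the role of Rbp7, 1 passed between old and young wild type: Aldh1a3, which makes retinoic acid, stood at 1.48 ± 0.661 FPKM in old and 3.59 ± 0.369 FPKM in young wild type (SD, n = 3 each, limma adjusted p = 0.0381). Their median log2 fold change there was -0.44, and between old P311-/- and old wild type it was 0.03. In the latter comparison 0 passed and 0 had an unadjusted p under 0.05, where 16.1% of all genes did. Leaving out P311-/- replicate 1, 1 of the 11 passed there, Aldh1a1, another retinaldehyde dehydrogenase gene, at a log2 fold change of 1.08 (adjusted p = 0.0313). Each of these age calls, of Acsl6, Lrp1, Etfa, Ppargc1b and Aldh1a3, was lost in some fit that left out 1 library, with adjusted p of up to 0.114 to 0.157. Without old wild-type replicate 2 or young replicate 3, limma passed 0 of all genes in that comparison, with 2737 and 2741 at an unadjusted p under 0.05.

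The marker lists of the tissue itself gave few calls over the 9 libraries and more without P311-/- replicate 1. Of 22 endothelial, 14 macrophage, 12 adipocyte and 9 pericyte and smooth muscle markers tested, none passed in any comparison of the 9 libraries. At an unadjusted p under 0.05 there were 3, 2, 2 and 1 of them between old P311-/- and old wild type and 4, 3, 1 and 1 between old and young, where the shares of all genes were 16.1% and 26.3%. The endothelial median was -0.04 and 0.18 in these 2 comparisons, and the macrophage median -0.28 and -0.49, with 13 of 14 macrophage markers below 0 in each. Pecam1, the adhesion molecule of endothelium, stood at 10.7 ± 1.58 FPKM in old P311-/-, 12.4 ± 3 FPKM in old wild type and 11.5 ± 0.186 FPKM in young wild type (SD, n = 3 each). Cdh5, the endothelial cadherin, stood at 18.3 ± 4.72, 20.5 ± 4.93 and 16.8 ± 2.23 FPKM in the same groups, and the muscle creatine kinase gene Ckm at 3210 ± 745, 2840 ± 293 and 2460 ± 47.0 FPKM. Of 15 fibre markers 1 passed with age, the fast myosin Myh1, at 1020 ± 113 FPKM in old and 2110 ± 667 FPKM in young wild type. Of 10 fibroblast markers 3 passed with age, all lower: the collagen gene Col1a1 (-1.04), the fibrillin gene Fbn1 (-0.95) and Cd248 (-0.85). The age calls of Myh1, Col1a1, Fbn1 and Cd248 were each lost in some fit that left out 1 library, with limma adjusted p of up to 0.12 to 0.156. No fibre or fibroblast marker passed between old P311-/- and old wild type, with 5 of 15 and 1 of 10 at an unadjusted p under 0.05.

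Against old wild type 5 of 22 endothelial markers passed without P311-/- replicate 1. Car4, Vwf and Aqp1 were higher (log2 fold change 1.32, 1.09 and 0.77), and Emcn and Cldn5 were lower (-1.05 and -0.79). Of 14 macrophage markers 4 passed, all lower: Cx3cr1 (-1.41), Ccr2 (-1.07), Adgre1 (-1.07) and Lyz2 (-1.03). Of 12 adipocyte markers 2 passed, the lipid droplet gene Plin4 higher (1.64) and Thrsp lower (-1.89). Of 15 fibre markers 5 passed, with Myh7, Myh2, Myh1 and Atp2a1 higher (4.02, 2.45, 0.98 and 0.74) and Myl1 lower (-0.69). The Myh7 value rests on as few as 15 reads in a library. The fibroblast markers Lum (-1.19) and Col3a1 (-0.86) were 2 of 10 that passed, and Abcc9 (0.45) was the 1 of 9 pericyte and smooth muscle markers.

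Between old P311-/- and young wild type limma passed no gene of any of the 11 lists over the 9 libraries, and it passed genes of every list without P311-/- replicate 1. Over the 9 libraries 21.4% of all genes had an unadjusted p under 0.05. At an unadjusted p under 0.05 were 7 of 24 other uptake genes, 4 of 15 lipid storage genes, 6 of 18 oxidation genes, 3 of 15 PPAR genes and 4 of 11 retinoid genes. Oxidation genes lay above 0 in 17 of 18 cases, with a median log2 fold change of 0.32. All 14 macrophage markers lay below 0, with a median of -0.77 and 10 at an unadjusted p under 0.05, and so did all 10 fibroblast markers, with a median of -0.65 and 7 at that p. Among endothelial, adipocyte, fibre, and pericyte and smooth muscle markers the numbers at that p were 2 of 22, 0 of 12, 4 of 15 and 0 of 9.

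Leaving out P311-/- replicate 1, 19.6% of all genes passed between old P311-/- and young wild type. Of 18 oxidation genes 11 passed, all higher, among them Echs1, the enoyl-CoA hydratase gene (log2 fold change 0.9), and the acyl-CoA dehydrogenase genes Acadm and Acadl (0.72 each). Of 14 macrophage markers 9 passed, all lower, among them Cx3cr1 (-1.9) and Adgre1 (-1.87), and of 10 fibroblast markers 6 passed, all lower, among them Col1a1 (-1.48). Of 24 other uptake genes 5 passed higher, among them Acsl6 (0.98), Vegfb (0.79) and Vldlr (0.48), and 4 lower, among them Aplnr (-2.07) and Lrp1 (-0.76). Fibre markers passed in 5 cases higher and 1 lower of 15, and PPAR genes in 4 higher and 2 lower of 15. Of 11 retinoid genes 1 passed higher, Aldh1a1 (1.54), and 2 lower, Aldh1a3 (-1.3) and the receptor gene Rara (-0.67). Pnpla2 (1.27) and Dgat2 (1.01), of triglyceride breakdown and synthesis, were the 2 of 15 lipid storage genes that passed. Car4 (1.02) and Aqp1 (1.13) were the 2 of 22 endothelial markers, Plin4 (0.99) and Thrsp (-1.08) the 2 of 12 adipocyte markers, and Acta2 (-1.01) the 1 of 9 pericyte and smooth muscle markers.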

How the data were processed

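RNA of injured tibialis anterior muscle was sequenced in 9 libraries. The submitters' processing notes name HISAT2 2.2.1, featureCounts 2.1.1, DESeq2 1.42.0 and the build mm39. Yet 98.3% of the gene identifiers shared with GENCODE M21 have the GRCm38 position in the authors' table, so positions are given on GRCm38. The authors deposited FPKM, scaled between libraries, and gene lengths in bases (another unit, used as given). Whole reads, used for depth, filters and voom, were recovered from FPKM and length for 100% of values within 0.001.

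Genes with at least 0.5 FPKM in 3 libraries and 10 reads in 3 libraries (14233) entered limma 3.58.1 in R 4.3.3, with trend and robust moderation, on log2 of FPKM plus 0.1, in 1 fit of the 3 groups. That scale understates the change of low genes. The method was run on simulated counts with the same spread in every library. That setting holds no library that stands apart, so it cannot speak to calls that depend on P311-/- replicate 1. The 10 genes, the 11 lists (other uptake, lipid storage, oxidation, PPAR, retinoid, endothelial, adipocyte, macrophage, fibre, fibroblast, pericyte and smooth muscle) and the tests were chosen with earlier results of these data known. From each list, up to 4 passing genes of smallest p are named, with Pecam1, Cdh5, Adipoq, Adgre1, Ckm and Pparg as values. For 5 of the 10 genes, the 3 tested genes of most similar centred profile are named, leaving out unnamed models. Acsl1, Vldlr, Ube4b, Trmt112-ps2 and genes passing only without P311-/- replicate 1 were added after values were seen. Counting intervals are exact (95%) and cover counting error only. Promoters are from RefSeq, GRCm38.p6. Alternatives were 2 other pseudocounts, no filter, 2 other scalings, 2 groups alone, a replicate block, quality weights, voom and leaving out each library.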

Additional observations from a re-analysis of the deposited data

How the results depend on the processing

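Of the 540 values of the 10 genes under 18 alternatives, 504 kept their direction and their side of the threshold or moved by less than the replicate spread. Part of this count was fixed in advance, since leaving out a library of the third group cannot move a log2 fold change between the other groups. For the 8 tested genes, keeping the side of the threshold meant staying uncalled. The number of the 8 tested genes passing, 0 in each comparison, became 3 with library quality weights where old P311-/- was set against old wild type, and 2 where it was set against young wild type. With those weights it became 1 for old against young wild type, as it did in a fit of only the 2 groups compared. Over the fits leaving out 1 library it ranged from 0 to 3, 0 to 2 and 0 to 1 in these comparisons. With 2 libraries left in a group, the spread is that pooled over all groups.

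Signs of small, uncalled differences turned when 1 library was left out. Setting old P311-/- against old wild type, log2 fold changes ran from -0.41 to 0.17 for Fabp3 and from -0.28 to 0.06 for Tcf15. For old against young wild type it ranged from -0.02 to 0.35 for Slc27a1, -0.05 to 0.52 for Fabp3, -0.32 to 0.1 for Fabp5, -0.21 to 0.13 for Tcf15 and -0.05 to 0.15 for Meox2. Setting old P311-/- against young wild type gave -0.21 to 0.01 for Gpihbp1, -0.04 to 0.27 for Fabp3, -0.47 to 0.12 for Fabp4 and -0.36 to 0.02 for Tcf15. With quality weights Tcf15 became 0.03 against old and 0.02 against young wild type. Under total-count scaling, which moved the median of all genes to -0.12 for old against young wild type and to -0.13 for old P311-/- against young wild type, Meox2 became -0.05 in the first comparison and Fabp3 -0.03 in the second. The cause was not tested.

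The log2 difference of Rbp7 between old P311-/- and old wild type was -0.78 with a pseudocount of 1 and -1.07 to -1.28 under the others, and against young wild type it was -0.69 with that pseudocount. With the replicate number as a block, which the labels do not explain (deviations of same-numbered libraries correlated at -0.1 to 0.15, so they were not taken as pairs), 0 of the 8 passed in each comparison, and over all genes 4, 0 (3386 at an unadjusted p under 0.05) and 5 passed, in place of 10, 768 and 57. Other alternatives moved these counts over all genes to between 4 and 2720, 0 and 2290, and 4 and 3173. The length of the principal transcript, added after the data were seen, moved the Fabp3, Fabp4 and Fabp5 shares in old wild type to 47.9%, 47.3% and 4.75%. Reads per gene, 14 to 42 for Rbp7 and at least 129 for the other 9, set the precision.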
